A study of Mus musculus with 6 samples.

Results

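A set of 10 genes of cholesterol efflux, intracellular trafficking and esterification was followed in colon tumors and colon tissue of mice: Abca1, Abcg1, Abcg5, Abcg8, Scarb1, Npc1, Npc2, Nr1h3, Soat1 and Apoe. They were taken by symbol from a table of 33573 genes, and all 10 had a row and passed the count filter. The libraries were 3 tumors (CAC-T) and 3 colon tissues (CAC-C) of C57BL/6 mice, numbered 2, 4 and 20 in both tissues. All mice had received azoxymethane (AOM), a carcinogen, and dextran sodium sulfate (DSS), which injures the colon epithelium, so the colon tissue was also exposed and no tissue of untreated mice was compared. Per the methods the mice were male, and per the labels the tissue was frozen whole, although the labels name a cell type for each sample.

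A cell that holds more cholesterol than it needs can export it, move it between compartments or store it as ester. Liver X receptors, among them LXRα (Nr1h3), are switched on by oxysterols and by sterol intermediates such as desmosterol, pair with retinoid X receptors, and drive genes of export. Abca1 and Abcg1 pass cholesterol to apolipoproteins and lipoprotein particles, and the Abcg5-Abcg8 pair returns sterols to the lumen of the gut. Npc2 and Npc1 hand cholesterol out of the lysosome, Soat1 esterifies it in the endoplasmic reticulum, Scarb1 exchanges it with high density lipoprotein, and Apoe carries it outside the cell.

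Promoter sequence is shown for the gene with the largest rise and for the pair with the widest spread between libraries. The windows come from RefSeq on the GRCm38.p6 build and run from 250 bases before to 50 after each start site, and 7 of the 10 genes had one. Abcg1, Scarb1 and Npc1 had none. The first stretch is the 150 bases before the Abca1 start site, chr4:53159896-53160045 on the minus strand, and the second is the 109 bases between the start sites of Abcg5 and Abcg8, chr17:84683012-84683120 on the plus strand.
Abca1 upstream: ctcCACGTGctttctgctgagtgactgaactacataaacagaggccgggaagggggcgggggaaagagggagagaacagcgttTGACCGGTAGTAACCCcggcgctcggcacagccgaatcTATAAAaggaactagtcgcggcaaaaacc
Abcg5-Abcg8 interval: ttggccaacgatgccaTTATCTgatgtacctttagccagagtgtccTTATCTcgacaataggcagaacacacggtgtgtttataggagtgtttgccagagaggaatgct
In the Abca1 stretch the capitals mark, in order, an E-box, a match to the DR4 element and a TATA box, which began 147, 67 and 29 bases before the start site. DR4 is the direct repeat with a spacer of 4 bases to which LXR and its partner bind, searched as AGGTCA, any 4 letters and AGGTCA again, on both strands with up to 3 mismatches in its 12 fixed letters. The Abca1 match lay on the other strand and used all 3 mismatches. In the Abcg5-Abcg8 interval the capitals mark 2 copies of the GATA motif AGATAA, read on the other strand, and a TATA box on that strand is left in lower case.

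The motifs were chosen with these sequences in view, and a match is a description of letters only. Of 32851 promoter windows of 300 bases in the annotation, 21.9% held a DR4 match at this tolerance, 7.15% an E-box (CACGTG), 13.6% a TATA box (TATAAA), 35.7% a GC box (GGGCGG) and 11.2% a GATA motif, each searched on both strands. The Abca1 window held 1 DR4 match, 1 E-box, 1 TATA box and 2 GC boxes, and the DR4 match overlapped none of the other motifs. No other window of the 7 genes held a DR4 match or an E-box. The windows of Abcg5 and of the nearer Abcg8 start overlap each other, and each held 3 GATA motifs and 1 TATA box. The Npc2 window held 3 GC boxes and 1 GATA motif, the Soat1 window held 1 GC box, and an Apoe window held 2 TATA boxes.

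The libraries held 16995481 to 20789620 counts, and 18520 genes were tested. Levels are given as CPM, the share of a library's counts scaled to a fixed total after TMM scaling, which suit comparison of 1 gene between libraries, or as FPKM, which also divides by exon length, which suit comparison between genes. Errors are SD with n = 3 libraries per tissue for levels and SE for log2 fold changes. Fold changes are tumor over colon from edgeR's quasi-likelihood test, with 95% intervals not adjusted for the number of genes, and adjusted p-values are by the Benjamini-Hochberg method over all tested genes. The 9 epithelial markers summed to 9466 to 11166 CPM in tumors and 9662 to 10822 CPM in colon. The 7 smooth muscle markers, among them Acta2 and Myh11, summed to 551 to 1081 CPM in tumors and 8870 to 9159 CPM in colon, and all 7 were lower in tumors. The 8 colonocyte markers summed to 323 to 938 CPM in tumors and 1508 to 3127 CPM in colon. Their part in the results was not tested.

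Of the 10 genes, 5 were higher in tumors and 0 were lower. The 5 were Abca1, Abcg1, Npc1, Soat1 and Apoe, that is both broad exporters, a lysosomal exporter, the esterifying enzyme and the extracellular carrier. Among all tested genes 16.1% were higher and 16.1% lower. At an unadjusted p under 0.05 edgeR placed 1 gene, Nr1h3, lower, DESeq2 called that same gene lower, and limma-voom called 0 lower. The median log2 change was 0.33 over the 10 genes and 0.01 over all tested genes. In 6 of the 10 genes every tumor lay above every colon library, a pattern found in 25.3% of all tested genes, and in Nr1h3 every tumor lay below, as in 24.2% of all. In bulk tissue a change in the number of cells of a type and a change in RNA per cell cannot be told apart.

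**Figure D1:**
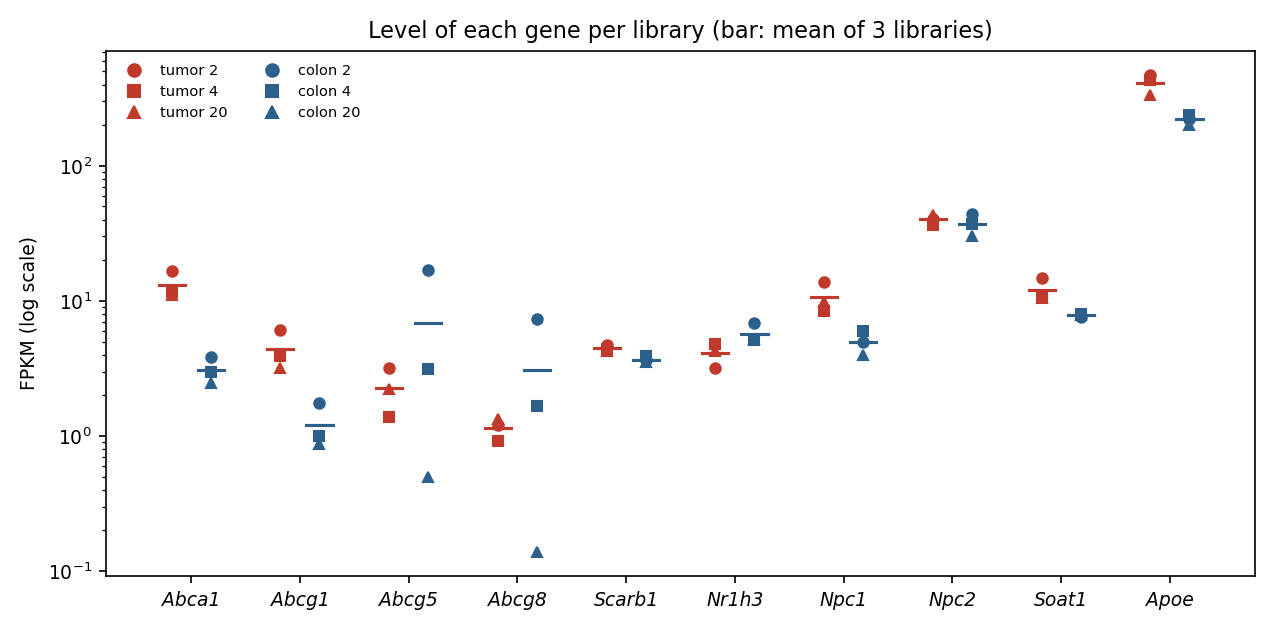
Level of each of the 10 genes in FPKM on a log axis, with tumor libraries in red left of colon libraries in blue, symbols for the library numbers 2, 4 and 20, and a bar at the mean of 3 libraries. Tumors lie above colon without overlap for Abca1, Abcg1, Scarb1, Npc1, Soat1 and Apoe, and the colon values of Abcg5 and Abcg8 spread most widely.

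**Figure D2:**
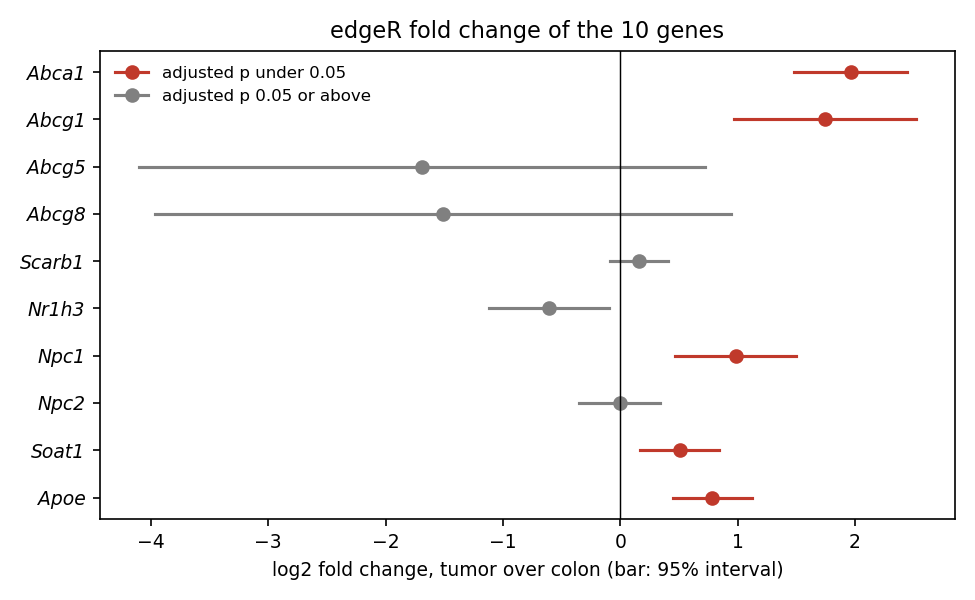
log2 fold change of the 10 genes, tumor over colon, from edgeR, with 95% intervals as bars and red for an adjusted p under 0.05. The 5 called genes range from 0.50 for Soat1 to 1.96 for Abca1, and the intervals of Abcg5 and Abcg8 are the widest of the 10.

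Abca1, which loads cholesterol and phospholipid onto lipid-poor apolipoprotein, rose most among the 10 genes. The gene (ENSMUSG00000015243) spans chr4:53030787-53159895 on the minus strand of GRCm39, the build of the deposited table. It was at 163, 116 and 112 CPM in tumors 2, 4 and 20, against 40.8, 32.2 and 27.4 CPM in colon 2, 4 and 20. The lowest tumor was well above the highest colon library, and library 2 was the highest in both tissues. The means were 130 ± 28.2 CPM in tumors and 33.5 ± 6.83 CPM in colon, a log2 fold change of 1.96 ± 0.21 (3.90-fold, interval 1.48 to 2.45, adjusted p = 0.000927). Within the numbered pairs the log2 differences were 1.99, 1.85 and 2.03 for numbers 2, 4 and 20, so the 3 pairs were close to one another. Per exon length Abca1 was the third of the 10 genes in tumors (13.1 ± 3.0 FPKM) and the eighth in colon (3.10 ± 0.69 FPKM).

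Abcg1, which adds cholesterol to already lipidated particles, followed the same order of libraries. It lies at chr17:31276649-31336962 on the plus strand (ENSMUSG00000024030). Its levels were 42.3, 27.3 and 22.6 CPM in tumors 2, 4 and 20, against 13.0, 7.67 and 6.81 CPM in colon 2, 4 and 20. Tumors and colon did not overlap, and library 2 was again the highest and library 20 the lowest in each tissue. Its log2 fold change was 1.74 ± 0.33 (3.35-fold, interval 0.97 to 2.52, adjusted p = 0.00805), with 1.69, 1.82 and 1.71 in pairs 2, 4 and 20. The ratio of the 2 exporters, as log2 CPM of Abca1 minus Abcg1, was 2.11 ± 0.18 in tumors and 1.89 ± 0.22 in colon. That difference of 0.22 did not pass an exact two-sided permutation test over the samples (p = 0.4, adjusted p = 0.457 over the 8 differences computed in this way, smallest possible p 0.1).

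Macrophages use both exporters heavily, and macrophage markers were also higher in tumors. The 12 markers summed to 1114, 986 and 880 CPM in tumors 2, 4 and 20, against 687, 661 and 490 CPM in colon 2, 4 and 20. Of the 12, 5 were higher and 1, Cd163, was lower, with a median log2 change of 0.40, and 0 of them lacked counts in either tissue. The number higher was 1 without colon 4, 2 without tumor 20, and 3 without tumor 2 or without colon 20. It was 4 without tumor 4 and 7 without colon 2. Set against the mean log2 level of these markers within each library, Abca1 was at 1.95 ± 0.21 in tumors and 0.14 ± 0.04 in colon. This difference of 1.81 had the smallest p the exact permutation test can give (p = 0.1, adjusted p = 0.16), with pair values of 2.06, 1.67 and 1.68. Without Cd163, the marker with the largest change, the difference was 1.41, with pair values of 1.56, 1.35 and 1.34 (exact two-sided permutation p = 0.1). Neutrophil markers summed to 148 to 274 CPM in tumors and 3.02 to 9.32 CPM in colon, and all 6 were higher; the part of either cell type in the rise of Abca1 and Abcg1 was not tested.

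Apoe, the apolipoprotein that macrophages and other cells secrete as an acceptor of exported cholesterol, had the highest level of the 10 genes in both tissues. The gene (ENSMUSG00000002985) lies at chr7:19430034-19433113 on the minus strand. It was at 960, 882 and 701 CPM in tumors 2, 4 and 20, against 490, 535 and 453 CPM in colon 2, 4 and 20. Every tumor exceeded every colon library. Per exon length the means were 414 ± 71.1 FPKM in tumors and 221 ± 20.6 FPKM in colon. edgeR gave a log2 fold change of 0.78 ± 0.14 (1.72-fold, interval 0.45 to 1.12, adjusted p = 0.00695). Relative to the macrophage markers Apoe was at 4.66 ± 0.13 in tumors and 4.04 ± 0.29 in colon on the log2 scale. The difference was 0.62, with 1.04, 0.55 and 0.28 in pairs 2, 4 and 20 (exact two-sided permutation p = 0.1, adjusted p = 0.16). This value depends on how the markers are summarized, and Cd163 among them had a log2 change of -4.98. With the other 11 markers Apoe was at 4.05 ± 0.12 in tumors and 3.82 ± 0.21 in colon, and the groups overlapped. The difference was then 0.23, with 0.54, 0.22 and -0.07 in pairs 2, 4 and 20 (exact two-sided permutation p = 0.2). Against the median of all 12 markers it was 0.64, with 1.23, 0.56 and 0.12 in pairs 2, 4 and 20 (exact two-sided permutation p = 0.1). Both alternatives were chosen after the data were seen.

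Abcg5 and Abcg8, the half-transporters that together return plant sterols and cholesterol to the gut lumen, had no called difference but varied widely between colon libraries. Abcg5 was at 8.21, 3.58 and 5.87 CPM in tumors 2, 4 and 20, against 46.7, 8.90 and 1.43 CPM in colon 2, 4 and 20. Abcg8 was at 4.3, 3.30 and 4.87 CPM in tumors 2, 4 and 20, against 28.5, 6.51 and 0.549 CPM in colon 2, 4 and 20. In both genes colon 2 was the highest and colon 20 the lowest of the 6 libraries, with all tumors between colon 4 and colon 20. The colon values rested on 856, 145 and 26 counts of Abcg5 and on 522, 106 and 10 counts of Abcg8 in libraries 2, 4 and 20. The highest and lowest library differed by 4.93 on the log2 scale for Abcg5 and by 5.45 for Abcg8, against at most 2.62 for any other of the 10 genes.

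The log2 fold change was -1.69 ± 1.03 for Abcg5 (interval -4.10 to 0.72, adjusted p = 0.247) and -1.51 ± 1.04 for Abcg8 (interval -3.96 to 0.94, adjusted p = 0.306). These intervals leave changes of either sign and of large size possible. Colon 2 decided the direction. Without it the log2 changes were 0.19 for Abcg5 (adjusted p = 0.869) and 0.24 for Abcg8 (adjusted p = 0.857). Without colon 20 they were -2.23 (adjusted p = 0.0615) and -2.07 (adjusted p = 0.0492), so that Abcg8 was then called lower. With the replicate number as a block they were -0.82 (adjusted p = 0.544) and -0.57 (adjusted p = 0.749). The pairs differed in direction, with -2.49, -1.29 and 1.96 for Abcg5 and -2.70, -0.96 and 2.93 for Abcg8 in pairs 2, 4 and 20.

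The pair had the same order over the colon libraries but not over the tumors, where Abcg5 was highest in tumor 2 and Abcg8 in tumor 20. Abcg5 minus Abcg8 in log2 CPM was 0.92, 0.11 and 0.26 in tumors 2, 4 and 20, against 0.71, 0.45 and 1.23 in colon 2, 4 and 20. In colon the difference spanned less than either level. In tumors it did not, since Abcg8 itself spanned 0.55 on the log2 scale there. Tumor and colon means of 0.43 ± 0.43 and 0.79 ± 0.40 were not separated (exact two-sided permutation p = 0.4, adjusted p = 0.457). The genes share a divergent promoter, the interval printed above. In the table's own annotation Abcg5 (ENSMUSG00000040505) spans chr17:84965662-84990439 on the minus strand and Abcg8 (ENSMUSG00000024254) spans chr17:84983730-85007761 on the plus strand. Their spans share 6710 bases on opposite strands. Whether the counting used strand is not given in the sources used here, so reads from the shared stretch may not be separated and their shared order in colon is uncertain to that extent.

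Markers of intestinal absorptive cells differed among themselves in their order over the colon libraries. The 8 markers of small intestinal enterocytes summed to 19.7, 190 and 214 CPM in colon 2, 4 and 20. Most of this sum was Fabp2, a fatty acid binding protein, at 12.7, 179 and 204 CPM in colon 2, 4 and 20. Among the colon libraries Slc10a2, the ileal bile acid transporter, was instead highest in colon 2, at 4.25, 1.29 and 1.37 CPM in colon 2, 4 and 20, as was Fabp6, at 2.07, 0.737 and 1.32 CPM. In tumors 2, 4 and 20 they summed to 14.2, 39.2 and 18.3 CPM. Of these 8 markers Apoa4 had 0 counts in all libraries, Sis in all tumors and Apoa1 in all colon libraries. The colonocyte sum was 323, 938 and 629 CPM in tumors 2, 4 and 20, and 1508, 3127 and 2228 CPM in colon 2, 4 and 20, where it was lowest in library 2. Of its markers Ms4a12 had the same order as Abcg5 and Abcg8, at 32.7, 23.3 and 20.3 CPM in colon 2, 4 and 20. These genes were chosen after their values were seen, and the part of these cells in the spread of Abcg5 and Abcg8 was not tested.

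**Figure D3:**
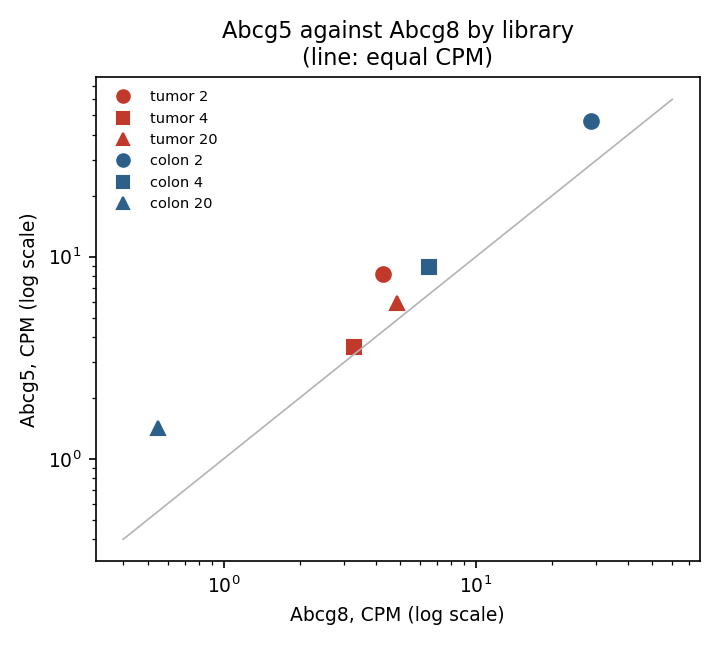
CPM of Abcg5 against CPM of Abcg8 in each of the 6 libraries, both on log axes, with tumors in red, colon in blue and a grey line where both would be equal. All 6 libraries lie above the line, colon 2 at the top and colon 20 at the bottom, with the 3 tumors between them.

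Scarb1, the receptor for selective exchange of cholesterol with high density lipoprotein, differed little. The gene (ENSMUSG00000037936, chr5:125354151-125418158, minus strand) was at 38.0, 35.9 and 35.4 CPM in tumors 2, 4 and 20, against 31.6, 34.6 and 31.7 CPM in colon 2, 4 and 20. All tumors were above all colon libraries, but tumor 20 and colon 4 were close. Its log2 fold change was 0.16 ± 0.11 (adjusted p = 0.29), and its interval of -0.09 to 0.41 leaves room for changes of up to that size. Relative to the mean of 9 epithelial markers Scarb1 was at -4.58 ± 0.13 in tumors and -4.18 ± 0.04 in colon on the log2 scale. The sign of this difference of -0.40 (exact two-sided permutation p = 0.1, adjusted p = 0.16) was set by Cldn4, a marker with a log2 change of 4.82. With the other 8 markers Scarb1 was at -4.65 ± 0.12 in tumors and -4.79 ± 0.04 in colon, a difference of 0.14 (exact two-sided permutation p = 0.2), so no direction relative to epithelial markers is read from it.

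Npc1, the lysosomal membrane protein that passes cholesterol out of the organelle, was higher in tumors, and its soluble partner Npc2 was not called. Npc1 (ENSMUSG00000024413, chr18:12322749-12369457, minus strand) was at 149, 91.5 and 108 CPM in tumors 2, 4 and 20, against 57.9, 71.2 and 47.5 CPM in colon 2, 4 and 20. The groups did not overlap, and the gap was smallest in number 4, with log2 differences of 1.36, 0.36 and 1.19 in pairs 2, 4 and 20. The log2 fold change was 0.98 ± 0.22 (1.97-fold, interval 0.47 to 1.5, adjusted p = 0.0144). The span of Npc1 overlaps that of Rmc1 by 967 bases on the opposite strand, and Rmc1 had 6750 counts over the libraries, so reads there may not be separated from those of Npc1 if strand was not used.

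Npc2, which binds cholesterol in the lysosomal lumen and hands it to Npc1, was the second most abundant of the 10 genes per exon length. The gene (ENSMUSG00000021242) spans chr12:84801336-84819926 on the minus strand. It was at 207, 189 and 232 CPM in tumors 2, 4 and 20, against 245, 210 and 176 CPM in colon 2, 4 and 20. The groups overlapped fully. Its log2 fold change was -0.01 ± 0.15 (interval -0.35 to 0.34, adjusted p = 0.977), and its sign turned in 7 of 17 alternatives. Npc1 minus Npc2 in log2 CPM was -0.87 ± 0.35 in tumors and -1.84 ± 0.26 in colon, a difference of 0.97 that was above 0 in all 3 pairs (1.6, 0.51 and 0.79 in pairs 2, 4 and 20; exact two-sided permutation p = 0.1, adjusted p = 0.16).

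Nr1h3, the oxysterol receptor LXRα, did not pass the threshold, although every tumor was below every colon library. The gene (ENSMUSG00000002108) lies at chr2:91014406-91033179 on the minus strand. It was at 7.62, 11.6 and 10.4 CPM in tumors 2, 4 and 20, against 17.7, 13.4 and 13.9 CPM in colon 2, 4 and 20. Tumor 2, the highest tumor for Abca1 and Abcg1, was the lowest for Nr1h3. The log2 fold change was -0.60 ± 0.22 (interval -1.12 to -0.09, adjusted p = 0.0717), with pair values of -1.21, -0.21 and -0.41. DESeq2 placed it past the threshold (log2 change -0.61, DESeq2 adjusted p = 0.0382), and the adjusted p over all 17 alternatives ran from 0.0382 to 0.18. Nr1h2, the other liver X receptor, was at 97.4 ± 6.91 CPM in tumors and 109 ± 2.80 CPM in colon. It was not called (log2 change -0.16 ± 0.095, edgeR adjusted p = 0.24). Rxrb, a retinoid X receptor, was not called either (log2 change -0.22 ± 0.10, edgeR adjusted p = 0.147).

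Soat1, which esterifies cholesterol for storage in lipid droplets, was higher in tumors by the smallest margin of the 5 called genes. The gene (ENSMUSG00000026600) spans chr1:156252095-156301901 on the minus strand. It was at 138, 101 and 101 CPM in tumors 2, 4 and 20, against 76.5, 81.6 and 81.7 CPM in colon 2, 4 and 20. Tumor 2 stood above the other tumors, and the colon libraries were tightly grouped. By edgeR the log2 fold change was 0.50 ± 0.14 (1.42-fold, interval 0.17 to 0.84, adjusted p = 0.0323). With the replicate number as a block the adjusted p was 0.0572, and without colon 2, 4 or 20 it was 0.0874, 0.0925 or 0.0794, so the call was lost in the block fit and without any of the 3 colon libraries.

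Soat1 was also set against the enzymes that free cholesterol from its esters. Lipa, lysosomal acid lipase, was at 47.6 ± 4.21 CPM in tumors and 38.1 ± 8.86 CPM in colon (adjusted p = 0.218). Nceh1, a neutral cholesterol ester hydrolase, was at 28.5 ± 4.11 CPM in tumors and 22.9 ± 8.55 CPM in colon (adjusted p = 0.43). Soat1 minus the mean of both in log2 CPM was 1.61 ± 0.38 in tumors and 1.48 ± 0.34 in colon. The difference of 0.13 was small against the spread between libraries (exact two-sided permutation p = 0.6, adjusted p = 0.6).

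All 5 called genes were highest in tumor 2 among the tumors. Tumor 2 also had the highest macrophage, neutrophil, fibroblast and endothelial marker sums of the tumors. It had the lowest colonocyte, smooth muscle, small intestinal enterocyte, lymphocyte, and enteric glia and neuron sums. The part of these cells was not tested. All 5 were called without tumor 2, with Soat1 at a log2 change of 0.35 (adjusted p = 0.0429).

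**Figure D4:**
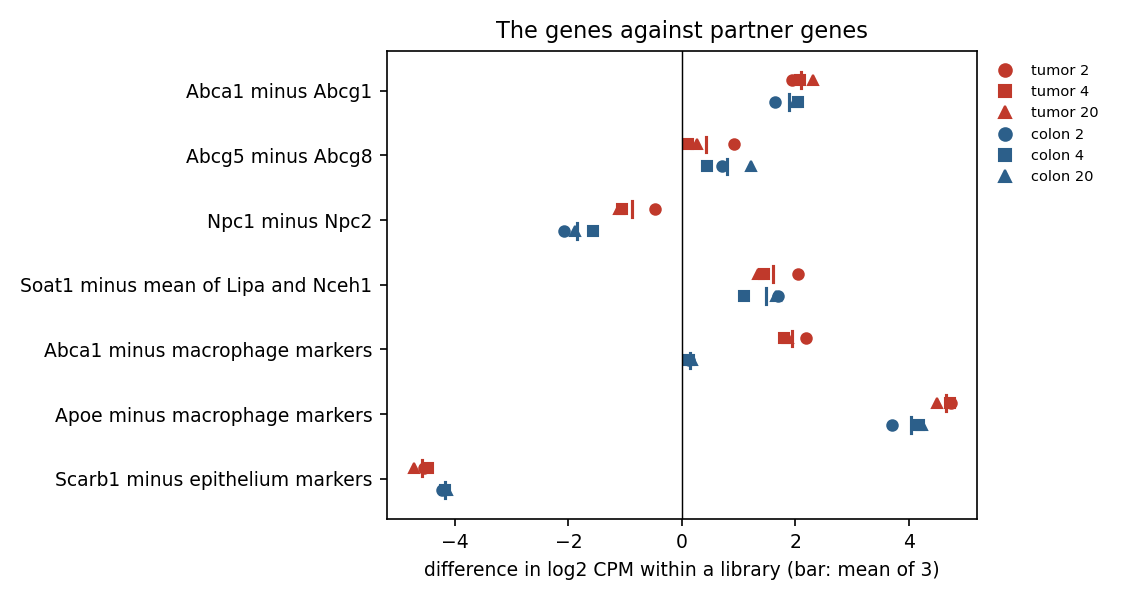
Differences in log2 CPM between 1 of the genes and its partner gene or marker mean within each library, with tumors in red above colon in blue and a bar at the mean of 3. Tumor and colon values do not overlap for Npc1 minus Npc2 and Abca1 minus macrophage markers. They do not overlap for Apoe minus macrophage markers or Scarb1 minus epithelial markers either. Without Cd163 the Apoe difference falls to 0.23 with overlap, and against the marker median it is 0.64. Without Cldn4 the Scarb1 difference turns to 0.14, and against the marker median it is -0.20.

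Other sterol genes were read from 7 lists of 96 genes, a few of them in more than 1 list. Of these, 94 had a row, Cyp7a1 and Sult2a1 were not analysed here, and 82 were tested. In tumors 18 were higher and 16 lower, or 22% and 19.5%, near the 16.1% and 16.1% of all tested genes, and the median log2 change was 0.04, against 0.01 over all genes. The number lower was 8 without tumor 20 and 8 without colon 4.

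Among the 12 tested partners and targets of LXR, 4 were higher and 3 lower, with a median of -0.19. Arl4c, a small GTPase that LXR induces and that takes part in cholesterol export, was at 82.9, 48.8 and 60.9 CPM in tumors 2, 4 and 20, against 3.22, 7.74 and 9.34 CPM in colon 2, 4 and 20. The lowest tumor was well above the highest colon library, and the log2 change was 3.25 ± 0.40 (adjusted p = 0.00167). Scd1, which desaturates fatty acids, was at 121 ± 18.2 CPM in tumors and 53.1 ± 5.47 CPM in colon (log2 change 1.19 ± 0.14, adjusted p = 0.00147). Pltp, the phospholipid transfer protein, was lower, at 17.8 ± 2.07 CPM in tumors and 38.6 ± 4.11 CPM in colon (log2 change -1.11 ± 0.15, adjusted p = 0.00219). Rxra, a retinoid X receptor that pairs with LXR, was also lower, at 65.8 ± 5.69 CPM in tumors and 97.1 ± 9.30 CPM in colon (log2 change -0.56 ± 0.12, adjusted p = 0.011). Smpdl3a, a phosphodiesterase with the highest FPKM of the list, was not called (log2 change -0.38 ± 0.41, adjusted p = 0.512). Abca1, Abcg1, Arl4c and Scd1 were therefore higher and Pltp and Rxra lower in the same tumors.

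Sterol uptake genes had the highest median of the lists, 0.84, with 6 of 11 higher and 0 lower. At an unadjusted p under 0.05 edgeR placed 1 lower, and DESeq2 and limma-voom each called 1 lower. Without tumor 2 the number lower was 2. Cubn, an endocytic receptor that binds vitamin B12 carriers and apolipoprotein A1, was at 38.1 ± 9.14 CPM in tumors and 0.892 ± 0.523 CPM in colon (log2 change 5.41 ± 0.44, adjusted p = 0.000404). Lrp8, a receptor for Apoe, was at 36.7 ± 1.17 CPM in tumors and 11.8 ± 2.68 CPM in colon (log2 change 1.63 ± 0.18, adjusted p = 0.00121). Lrp8 and Apoe were thus both higher in tumors. Other lipoprotein receptors of the list were not called, among them Lrp1 (log2 change -0.39 ± 0.17, edgeR adjusted p = 0.119) and Vldlr (0.50 ± 0.25, edgeR adjusted p = 0.159).

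Of 21 genes of intracellular sterol transport 4 were higher and 4 lower, with a median of -0.10. The number higher was 2 without tumor 20, without colon 4 or without colon 20, and the number lower was 2 without colon 4. Lamp2, a lysosomal membrane glycoprotein, was at 597 ± 75.8 CPM in tumors and 158 ± 2.49 CPM in colon (log2 change 1.92 ± 0.12, adjusted p = 0.000209). Its relative Lamp1, the gene of the list with the highest FPKM, was at 427 ± 34.4 CPM in tumors and 438 ± 17.1 CPM in colon (adjusted p = 0.808). Gramd1a, which carries sterol between the plasma membrane and the endoplasmic reticulum, rose by 1.06 ± 0.22 on the log2 scale (adjusted p = 0.0116). Stard4, a soluble sterol carrier, was lower (log2 change -0.90 ± 0.16, adjusted p = 0.00654). Cav1, the main protein of caveolae and abundant in muscle and endothelium, was lower as well (log2 change -1.74 ± 0.33, adjusted p = 0.00787). Among these lysosomal genes Npc1 and Lamp2 were called higher, and Npc2, Lamp1 and Lipa were not called.

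Among 9 genes of esterification and ester hydrolysis 2 were higher and 2 lower, with a median of 0.31. With a library left out the number higher was 1, or 3 without tumor 4, and the number lower was 1, or 2 without colon 2. Plin2, a coat protein of lipid droplets, was at 125 ± 4.72 CPM in tumors and 88.5 ± 6.69 CPM in colon (log2 change 0.50 ± 0.10, adjusted p = 0.00909). Soat2, the other sterol esterifying enzyme and far less abundant than Soat1, was at 3.20 ± 0.60 CPM in tumors and 1.57 ± 0.30 CPM in colon (log2 change 1.02 ± 0.31, adjusted p = 0.0412, and 0.0838 with the replicate number as a block), a call lost in 7 of 17 alternatives, with adjusted p up to 0.13 without tumor 20, and kept without tumor 4 alone among the 6 left-out libraries. Ces1d, a carboxylesterase, was lower, at 5.65 ± 4.79 CPM in tumors and 52.2 ± 29.3 CPM in colon (log2 change -3.20 ± 0.68, adjusted p = 0.0125). Its relative Ces1f had a log2 change of -3.22 ± 0.96 (adjusted p = 0.0392), a call lost in 8 of 17 alternatives. Ces1d and Ces1f belong to a family of similar genes whose reads the counting may have split.

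The 8 tested genes of oxysterol and bile acid metabolism and sensing held 1 higher and 1 lower gene, with a median of 0.23. With a library left out 0 to 2 were higher and 0 to 2 lower. Hsd3b7, a bile acid enzyme, had a log2 change of 1.35 ± 0.39 (adjusted p = 0.0372), and Cyp39a1, an oxysterol hydroxylase, one of -0.59 ± 0.18 (adjusted p = 0.0397). Both calls were lost in several alternatives, 6 and 9 of 17. Cyp27a1, which makes the LXR ligand 27-hydroxycholesterol, was at 108, 50.7 and 71.9 CPM in tumors 2, 4 and 20, against 52.8, 29.1 and 23.0 CPM in colon 2, 4 and 20. Each tumor exceeded the colon library of the same number, but the groups overlapped, with tumor 4 below colon 2. Library 2 was the highest in both tissues, as for Abca1 and Abcg1, and a link between these genes was not tested. The log2 change was 1.14 ± 0.37 (adjusted p = 0.0539), and with the replicate number as a block the adjusted p was 0.0127.

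Of 13 apolipoprotein and lipoprotein remodelling genes other than Apoe, 1 was higher and 3 lower, with a median of 0.01. Without tumor 4 the number higher was 2, and without tumor 2, tumor 20, colon 2 or colon 4 the number lower was 2. Clu, a secreted chaperone also called apolipoprotein J, was at 511 ± 108 CPM in tumors and 92.1 ± 22.8 CPM in colon (log2 change 2.47 ± 0.23, adjusted p = 0.00059). Lipg, endothelial lipase, was lower, at 16.0 ± 2.29 CPM in tumors and 52.9 ± 7.62 CPM in colon (log2 change -1.72 ± 0.17, adjusted p = 0.0007). Apoe and Clu were therefore the called rises among the apolipoproteins.

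The other 12 tested transporters of the ABCA and ABCG families had a median of -0.83, with 0 higher and 5 lower. At an unadjusted p under 0.05 edgeR placed 1 higher, and DESeq2 and limma-voom each called 1 higher. The number lower was 1 without tumor 20, 2 without colon 4, 3 without tumor 2, colon 2 or colon 20, and 6 without tumor 4, so the count depends on which libraries are used. Abca8a was at 0.361 ± 0.489 CPM in tumors and 16.4 ± 6.86 CPM in colon (log2 change -5.43 ± 0.90, adjusted p = 0.00497). Abca7, a phospholipid transporter and close relative of Abca1, was at 57.7 ± 4.93 CPM in tumors and 90.7 ± 13.9 CPM in colon (log2 change -0.65 ± 0.14, adjusted p = 0.0124, and 0.051 without tumor 20 and 0.0507 without colon 4, where the call was lost). Abca3, the transporter with the highest FPKM of the list, was at 99.3 ± 4.33 CPM in tumors and 108 ± 19.6 CPM in colon (adjusted p = 0.557).

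**Figure D5:**
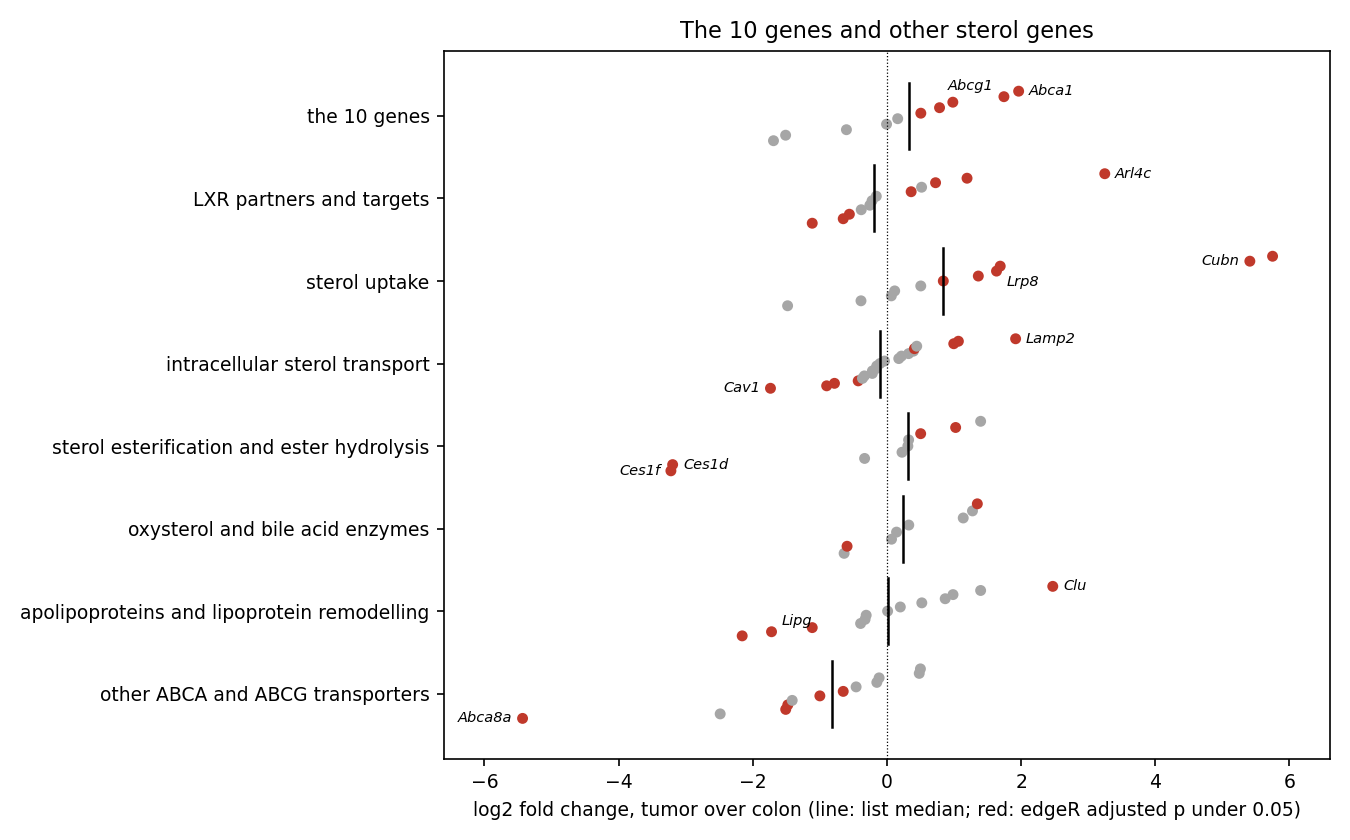
log2 fold change, tumor over colon, of each tested gene of the 10 and of the 7 lists of other sterol genes, 1 dot per gene, with red for an edgeR adjusted p under 0.05 and a vertical line at the list median. The median of the 10 genes is 0.33, that of sterol uptake is 0.84 and that of the other ABCA and ABCG transporters is -0.83.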

How the data were processed

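RNA-seq libraries of 3 tumors and 3 colon tissues were made, per the labels, with a stranded mRNA kit. The submitters' notes on processing list cutadapt, HISAT and GRCm39. In the sources used here, versions, the counting tool and its strand setting are not given. A raw count per gene and library, and the FPKM made from it, were deposited for 33573 genes, of which 343 rows had no symbol.

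The deposited counts were fitted with edgeR 4.0.16 under R 4.3.3, using TMM factors, the filterByExpr filter and the quasi-likelihood test. Adjustment was by Benjamini-Hochberg over 18520 genes with a threshold of 0.05. An approximate SE was derived from the log2 fold change and its F statistic. Differences within libraries used log2 CPM (prior count 2) and an exact two-sided permutation test. Scripts were tested on simulated data. Alternatives were RLE, upper quartile and epithelial marker scaling, DESeq2 1.42.0, voom in limma 3.58.1, no filter or a filter of 1 CPM in at least 3 libraries, limma on log2 FPKM with 1 or 0.1 added, the replicate number as a block, a table without the 5 genes that took more than 1% of any library, and each library left out in turn.

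Samples were grouped by their labels. Since these do not tie each number to its own mouse, p-values reflect only how these libraries spread, which may be technical. Tissues were paired according to the series design, and equal numbers were taken as pairs. The correlation of their deviations from the tissue means was 0.192 for number 2, 0.122 for number 4 and 0.018 for number 20. Between unequal numbers it ran from -0.204 to 0.125, with 0.125 for tumor 4 and colon 20 and 0.018 for tumor 20 and colon 2. These values do not settle whether equal numbers came from the same mouse. No libraries were duplicates. The genes and lists were chosen with earlier results of these data known. Named genes were the 10 genes, the 2 called genes with the lowest adjusted p in each direction and the gene with the highest mean FPKM of each other list, and the partner genes of the differences. Of the 8 differences tested and adjusted together, 1 is not reported here, nor is 1 gene that this rule names. Arl4c, Cyp27a1, Nr1h2, Rxrb, Lrp1, Vldlr and marker genes are given beyond this rule or with more detail than it asks, chosen after their values were seen.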

Additional observations from a re-analysis of the deposited data

How the results depend on the processing

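Abca1, Abcg1, Npc1 and Apoe were called higher in all 17 alternatives, at log2 changes of 1.78 to 2.13, 1.27 to 2.08, 0.77 to 1.14 and 0.69 to 0.91. Of the 10 genes 4 to 5 were called higher and 0 to 1 lower when a library was left out, and DESeq2 called 1 lower. Soat1 lost its call under epithelial marker scaling (adjusted p = 0.052), with the block and without any 1 colon library. With a library left out the log2 changes of Abcg5 and Abcg8 ran from -2.23 to 0.19 and from -2.07 to 0.24, above 0 without colon replicate 2. That of Npc2 turned to 5e-04 by limma-voom, 0.12 on log2(FPKM + 1), 0.12 on log2(FPKM + 0.1), 0.001 with the block, and ran from -0.12 to 0.11 with a library left out. Of the other sterol genes 13 to 19 were higher and 8 to 14 lower when a library was left out. Lamp1 turned to 0.0803 on log2(FPKM + 1) and 0.0807 on log2(FPKM + 0.1), with -0.102 to 0.0069 when a library was left out. Abca3 turned to 0.0145 and 0.0169 on those scales, with -0.20 to 0.038 when a library was left out. Soat1 minus the mean of Lipa and Nceh1 ran from -0.0861 to 0.2665 without 1 library. In alternatives chosen after seeing the data, Scarb1 minus epithelial markers turned to 0.14 without Cldn4 and was -0.20 against the marker median, and Apoe minus macrophage markers was 0.23 without Cd163 and 0.64 against the median. On log2(FPKM + 1), 62.2% of called genes were higher (3860 of all genes higher, 2350 lower), and 61.9% on log2(FPKM + 0.1), where the median log2 change of all genes was 0.09 and 0.12, against 49.9% and 0.01 by edgeR, and without colon replicate 4, 1905 were higher and 1904 lower. The causes were not tested. With the block 4 of the 10 genes were higher, and of the genes that the naming rule gives only Soat1, Soat2 and Cyp27a1 changed call. With 3 libraries per tissue the exact test cannot go below 0.1, or 0.25 by sign flips within pairs.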
